A study of Bos indicus with 6 samples.

Results

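Transcripts of 8 genes of chloride and sodium transport were measured in the isthmus, the narrow uterine end of the cow oviduct. The genes are SLC12A2, CFTR, CLIC6, ANO1, SCNN1A, SCNN1B, SCNN1G and ATP1B1, and each was found by its symbol as exactly 1 row of the 24616 rows of the deposited table, so 8 of 8 were present. Of these, 7 passed the filter for testing (a mean normalized count above 5 and above its SD over the 6 libraries), and SCNN1B did not, because its mean was below its SD.

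The libraries came from 6 healthy, multiparous, non-lactating Nelore (Bos indicus) cows, with 1 RNA-seq library per cow from the whole thickness of the isthmus on the side of the corpus luteum (CL), collected on day 4 after injection of a GnRH agonist. Cows 617, 79 and 527 belonged to the LF/LCL group (large follicle, large CL) and cows 856, 489215 and 97 to the SF/SCL group (small follicle, small CL). All cows had received estradiol benzoate, an intravaginal progesterone device, prostaglandin F2 alpha (PGF) at and after its removal, and the GnRH agonist. The LF/LCL cows had an additional PGF injection when the device was inserted and lost the device 42 h before GnRH, whereas the SF/SCL cows lost it 30 h before GnRH. The animals had been ranked on follicle, CL and steroid measurements, and those sequenced were the top 3 of LF/LCL and the bottom 3 of SF/SCL, so the groups are extremes of the model and not random cows of each treatment.

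Fluid of the oviduct is made by its epithelium, which moves chloride toward the lumen so that sodium and water follow. In a chloride-secreting cell the Na-K-2Cl cotransporter NKCC1, encoded by SLC12A2, brings chloride in across the basolateral membrane, and apical channels such as CFTR and the calcium-activated channel ANO1 let it out. The epithelial sodium channel ENaC, built from the alpha, beta and gamma subunits of SCNN1A, SCNN1B and SCNN1G, works the other way by taking sodium up from the lumen, and the sodium pump, of which ATP1B1 encodes a beta subunit, maintains the gradients on which all of these depend.

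Values are normalized counts, the reads of a gene divided by the size factor of its library, and libraries held 23899117 to 34193164 counted reads. Log2 fold changes are SF/SCL over LF/LCL on the scale of log2(normalized count + 1), which understates the change of low genes. Cow 489215 stood apart from the other cows. It had the highest value of the 6 cows in 36.7% and the lowest in 35.7% of the 15387 genes tested, and the median residual SD of a gene was 0.44 with this cow and 0.18 on the log2 scale without it. With all 6 cows, limma called 0 genes (0%) at a Benjamini-Hochberg adjusted p-value under 0.05, the smallest adjusted p being 0.351, and it gave an unadjusted p-value under 0.05 to 1333 genes (8.66%). The edgeR quasi-likelihood test also called 0, with 1338 at an unadjusted p-value under 0.05, while DESeq2 called 409 (2.66%). Without cow 489215, limma called 2827 of 15495 genes (18.2%) and DESeq2 3922 (25.3%). The results of the 8 genes and of the related genes named below are therefore given with and without this cow. Without it, 3 cows stand against 2.

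Markers of the tissue's cell types differed between the cows as well. OVGP1, the main glycoprotein of the secretory cells, was at 287 to 1950 normalized counts in LF/LCL and at 271794, 730 and 325158 in SF/SCL cows 856, 489215 and 97. Of the other secretory markers found, PAX8 and WT1 were also highest in cows 856 and 97, whereas MSX1 ran the other way, at 1228 to 1721 in LF/LCL and at 125, 2739 and 461 in cows 856, 489215 and 97. The summed level of 11 general epithelial markers, led by EPCAM and keratins, was 33527 to 51814 in LF/LCL and 58113 to 81382 in SF/SCL, although 2 of the 11 were lower in SF/SCL by the mean of their log2 values. The 14 ciliated cell markers, of which PIFO was listed at 0 in every library, summed to 44766 to 57198 in LF/LCL and 51223 to 90177 in SF/SCL. The 9 smooth muscle markers summed to 808563 to 926324 in LF/LCL and to 375799, 1275159 and 436809 in cows 856, 489215 and 97. The 8 fibroblast markers, all lower in SF/SCL by the mean of their log2 values, summed to 404376 to 514382 in LF/LCL and 200794 to 302233 in SF/SCL. In whole tissue, fewer cells of a type and less RNA per cell cannot be told apart, and the part of these differences in the results below was not tested.

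By the mean of the log2 values, 7 of the 8 genes were lower and SCNN1G was higher in SF/SCL. The 7 include ANO1, whose sign turned with the test and without cow 489215, and apart from it 6 of 7 were lower. Without cow 489215, 6 of 8 were lower. Among the 7 tested, 6 were lower in SF/SCL by the sign of the fold change (5 of 6 apart from ANO1), against 51.4% of all genes tested, and without cow 489215 it was 5 of 7, against 50.1%. SLC12A2 was the only gene of the 8 whose groups did not overlap. Of all genes tested, 18.1% did not overlap, 8.6% being higher in LF/LCL. At an unadjusted p-value under 0.05 limma found 1 of 7, SLC12A2, against 8.66% of all genes tested. At an adjusted p-value under 0.05 limma and edgeR each found 0 of 7, against 0% of all genes. DESeq2 found 1 of 7 at that threshold, against 2.66%. Without cow 489215 the limma count was 3 of 7 (CFTR, SLC12A2 and CLIC6, all lower in SF/SCL), against 18.2% of all genes. The DESeq2 count was then 5 of 7, with ATP1B1 also lower and SCNN1G higher in SF/SCL (adjusted p-values 0.0310 and 0.00893), against 25.3% of all genes.

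**Figure D1:**
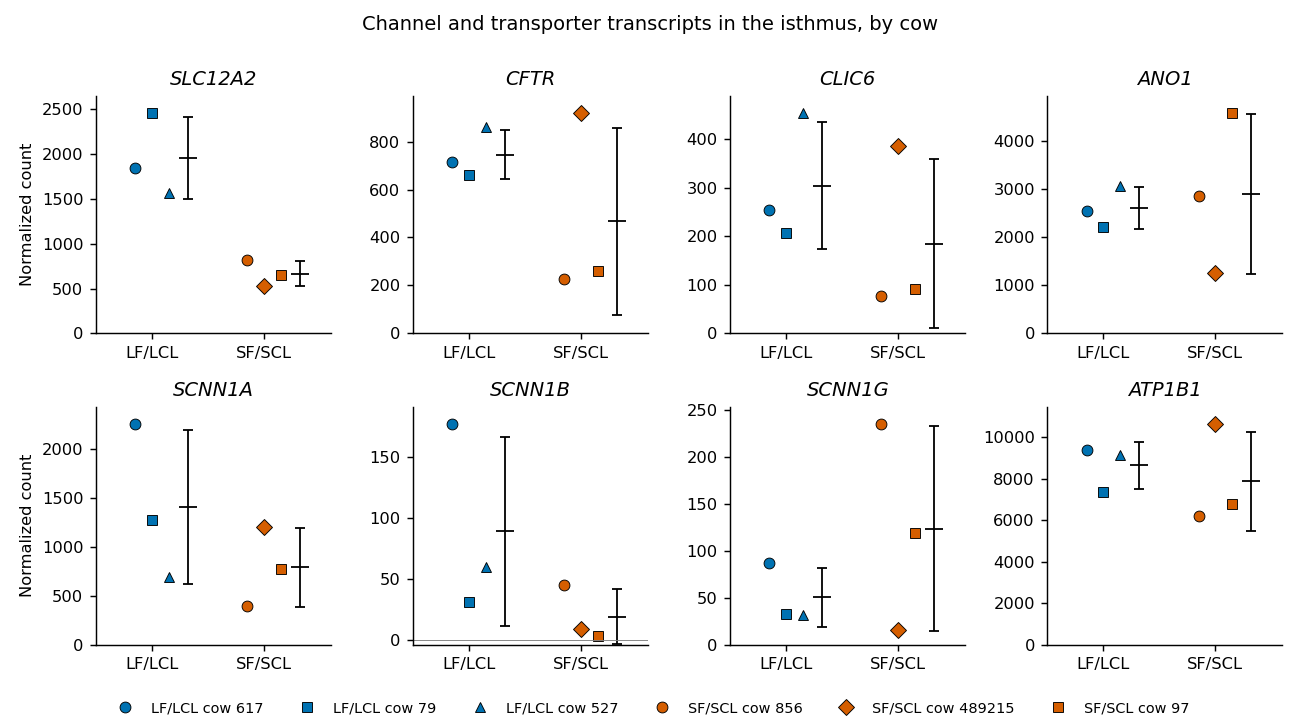
Normalized counts (linear axis) of the 8 genes in each cow, LF/LCL in blue and SF/SCL in orange, with the group mean and SD (n = 3) beside the points. SLC12A2 is separated between the groups, from 531 to 817 in SF/SCL and from 1565 to 2458 in LF/LCL, and the diamond of cow 489215 lies away from cows 856 and 97 in most of the other panels.

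The cotransporter that loads the cell with chloride was the gene whose groups were separated. SLC12A2 was at 1841, 2458 and 1565 normalized counts in LF/LCL cows 617, 79 and 527. In SF/SCL cows 856, 489215 and 97 it was at 817, 531 and 655. Every LF/LCL cow was above every SF/SCL cow, and cow 489215 was the lowest of all. The means were 1955 ± 457 and 667 ± 143 (SD, n = 3 each), so that LF/LCL was 2.93 times as high. The limma log2 fold change was -1.55 (SE 0.26, 95% interval -2.17 to -0.93), with an unadjusted p-value of 0.000727 and an adjusted p-value of 0.351, which missed the threshold. DESeq2 gave -1.55 with an adjusted p-value of 0.000149, and edgeR -1.57 with an adjusted p-value of 0.321. Of the 10 ways to divide the cows 3 against 3, an exact permutation test, two-sided, gave p = 0.1, the smallest possible. The difference did not rest on cow 489215, since without it the log2 fold change was -1.39 (SE 0.21) with a limma adjusted p-value of 0.00845. The summed level of the general epithelial markers was higher in SF/SCL, although 2 of the 11 were lower by the mean of their log2 values. The sums of the smooth muscle and fibroblast markers were lower in cows 856 and 97. In cow 489215 the fibroblast sum was lower and the smooth muscle sum higher than in LF/LCL. The part of these markers in the SLC12A2 values was not tested.

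CFTR, the cyclic AMP-gated chloride and bicarbonate channel of the apical membrane, was even within LF/LCL and split within SF/SCL. Its normalized counts were 717, 661 and 860 in cows 617, 79 and 527. They were 225, 919 and 260 in cows 856, 489215 and 97. Cows 856 and 97 lay far below every LF/LCL cow, and cow 489215 was the highest of the 6, so the groups overlapped. With all cows the means were 746 ± 103 and 468 ± 391, and the limma log2 fold change was -0.97 (SE 0.54, 95% interval -2.28 to 0.33) with an adjusted p-value of 0.708. Without cow 489215 it was -1.61 (SE 0.16) with a limma adjusted p-value of 0.00305, the mean of LF/LCL being 3.08 times that of cows 856 and 97. Cow 489215 was at 3.79 times the mean of the other two SF/SCL cows. The summed smooth muscle markers were likewise lowest in cows 856 and 97 and highest in 489215, an order that 5 of the 9 markers showed singly. Of the secretory markers found, OVGP1, PAX8 and WT1 were higher in cows 856 and 97 than in cow 489215. MSX1 ran the other way, at 125 and 461 in cows 856 and 97 and at 2739 in cow 489215. The part of these markers in the CFTR values was not tested.

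CLIC6, a member of the chloride intracellular channel family found in secretory epithelia, followed the same arrangement. It was at 253, 206 and 453 normalized counts in LF/LCL cows 617, 79 and 527 and at 76.7, 386 and 91.0 in SF/SCL cows 856, 489215 and 97. The pair of cows 856 and 97 was again below all LF/LCL cows, and cow 489215 fell inside the LF/LCL range. The means were 304 ± 131 and 185 ± 175, and the log2 fold change was -1.04 (SE 0.68, 95% interval -2.66 to 0.58) with a limma adjusted p-value of 0.762, and -1.77 (SE 0.35) with an adjusted p-value of 0.0205 without cow 489215.

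ANO1, the calcium-activated chloride channel, showed no direction that held. Its values were 2541, 2203 and 3076 in cows 617, 79 and 527 and 2867, 1258 and 4581 in cows 856, 489215 and 97. The lowest and the highest of the 6 cows were both SF/SCL, and cow 856 lay within the LF/LCL range. The means were 2607 ± 440 and 2902 ± 1662, the limma log2 fold change was -0.02 (SE 0.46, 95% interval -1.13 to 1.09), and the adjusted p-value was 0.993. The sign turned with edgeR (0.14) and DESeq2 (0.16) and without cow 489215 (0.49, limma adjusted p-value 0.181), so no direction is given for this gene. Outside the epithelium ANO1 is also a known marker of interstitial cells of Cajal, the pacemaker cells of smooth muscle. KIT, the other marker of those cells, was at 638 to 936 in LF/LCL and at 4827, 481 and 4563 in cows 856, 489215 and 97. Its part in the ANO1 values was not tested.

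**Figure D2:**
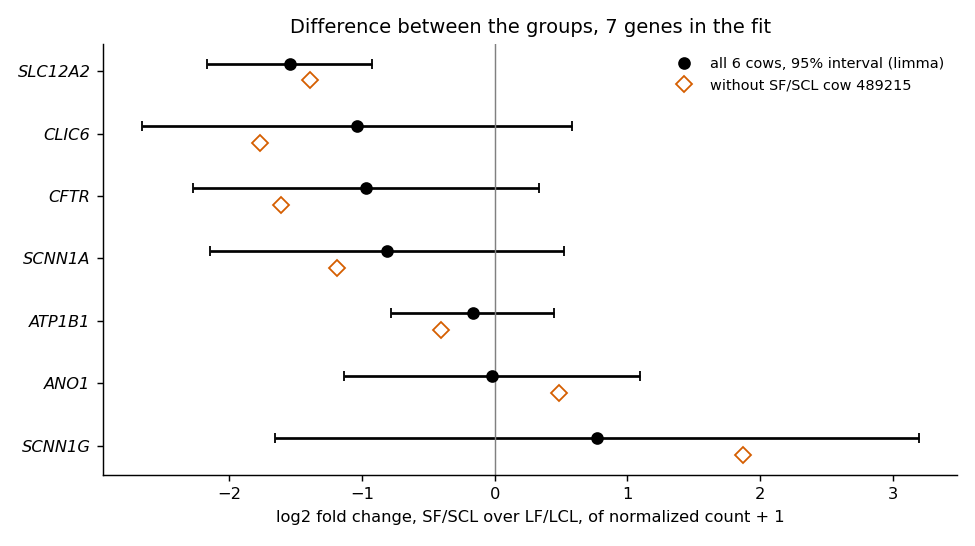
Log2 fold change of the 7 tested genes, SF/SCL over LF/LCL, of the normalized count + 1, with black points and bars for the limma estimate and its 95% interval over 6 cows and open diamonds for the estimate without cow 489215. The interval of SLC12A2, from -2.17 to -0.93, lies wholly below 0, the other 6 intervals cross 0, and the diamonds of CFTR, CLIC6 and SCNN1G lie farther from 0 than their points.

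The subunits of ENaC had unlike patterns across the cows. SCNN1A, the alpha subunit on which a functional channel depends, was spread widely in LF/LCL, at 2257, 1278 and 697 normalized counts in cows 617, 79 and 527. In SF/SCL it was at 396, 1208 and 774 in cows 856, 489215 and 97. The groups overlapped, with cows 617 and 79 above every SF/SCL cow and cow 856 below every LF/LCL cow. The means were 1411 ± 788 and 792 ± 406, and the log2 fold change was -0.81 (SE 0.55, 95% interval -2.15 to 0.52) with a limma adjusted p-value of 0.779, and -1.19 with an adjusted p-value of 0.153 without cow 489215. It came to -0.39 without cow 617 and -0.38 without cow 856.

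SCNN1B, the beta subunit, rested on few reads, from 33 to 169 per library in LF/LCL and 59, 7 and 3 in SF/SCL cows 856, 489215 and 97. The normalized counts were 177, 31.0 and 59.7 in cows 617, 79 and 527 and 44.8, 9.32 and 3.25 in cows 856, 489215 and 97. Cow 856 was above the lowest LF/LCL cow, and cows 489215 and 97 were below all the rest. The means were 89.2 ± 77.3 and 19.1 ± 22.5, and the difference of the mean log2 values was -2.47, or -2.33 without cow 489215, and from -3.41 without cow 856 to -1.69 without cow 97, sizes that at so few reads depend on the pseudocount. With the filter on the mean alone, which admits the gene, the limma p-value was 0.0516 and its adjusted p-value 0.574, and DESeq2 gave -2.20 with an adjusted p-value of 0.320. The exact permutation test gave p = 0.2, and for the 6 genes other than SCNN1B and SLC12A2 it gave 0.3 to 1.

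SCNN1G, the gamma subunit, had a higher mean in SF/SCL, with a wide spread between its cows. Its values were 86.9, 32.9 and 31.6 in LF/LCL cows 617, 79 and 527 and 235, 16.0 and 119 in SF/SCL cows 856, 489215 and 97. Cows 856 and 97 were above every LF/LCL cow, and cow 489215 was below all of them. The means were 50.4 ± 31.6 and 123 ± 109, and the log2 fold change was 0.77 (SE 1.01, 95% interval -1.66 to 3.20) with a limma adjusted p-value of 0.892, and it was 1.87 with an adjusted p-value of 0.0588 without cow 489215. It came to -0.025 when cow 856 was left out, so a direction is not given over all 6 cows.

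Beta and gamma subunit genes are known neighbours, and on a RefSeq Bos indicus assembly (NIAB-ARS_B.indTharparkar) SCNN1B and SCNN1G had 1 pseudogene between them. The balance of their reads within each library, which does not depend on the normalization, was looked at after the values had been seen. It is therefore described without a p-value. SCNN1G had 83 reads for 169 of SCNN1B in cow 617, a ratio of 0.491 (95% exact counting interval 0.373 to 0.642). The ratio was 1.06 (0.640 to 1.76) in cow 79 and 0.529 (0.343 to 0.804) in cow 527. In SF/SCL it was 5.24 (3.95 to 7.04) in cow 856, 1.71 (0.622 to 5.14) in cow 489215 and 36.7 (12.2 to 181) in cow 97, where SCNN1B had 3 reads. The ratio was thus higher in each SF/SCL library than in any LF/LCL library, but the interval of cow 489215, with 12 and 7 reads, covers that of cow 79. No transcript lengths were used, so the ratio can be compared between libraries, and its place above or below 1 has no meaning. The ratios of SCNN1G to SCNN1A and of SCNN1B to SCNN1A overlapped between the groups. No molecular identifiers were used, so these intervals account for counting error and nothing else.

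**Figure D3:**
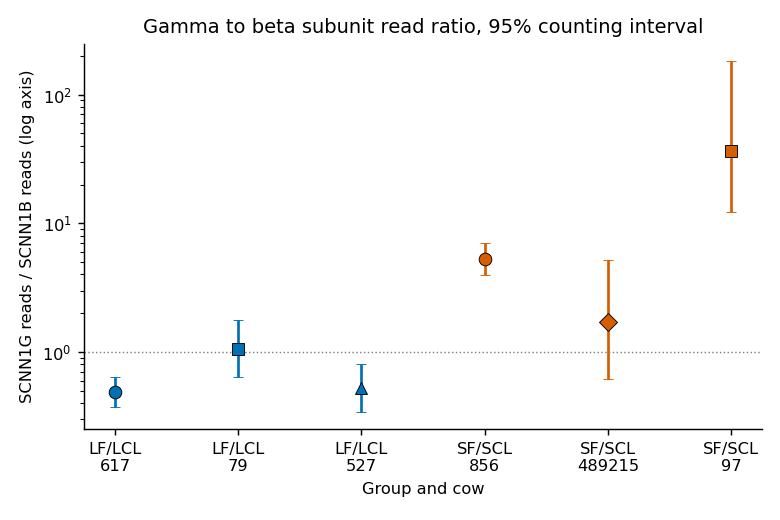
Ratio of SCNN1G reads to SCNN1B reads in each library (log axis), with the 95% exact counting interval, LF/LCL in blue and SF/SCL in orange, and a dotted line at a ratio of 1. The LF/LCL libraries lie from 0.491 to 1.06 and the SF/SCL libraries from 1.71 to 36.7, with the widest intervals where SCNN1B had 3 or 7 reads.

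ATP1B1, the beta subunit that carries the sodium pump to the membrane, had the smallest fold change after ANO1. It was at 9394, 7354 and 9141 normalized counts in cows 617, 79 and 527 and at 6207, 10610 and 6788 in cows 856, 489215 and 97. As for CFTR, cows 856 and 97 were below every LF/LCL cow and cow 489215 above all. The means were 8630 ± 1112 and 7868 ± 2392, and the log2 fold change was -0.17 (SE 0.26, 95% interval -0.78 to 0.45) with a limma adjusted p-value of 0.903, and -0.40 with an adjusted p-value of 0.0776 without cow 489215.

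Cows 856 and 97 lay on the same side of the LF/LCL cows in several of the genes. They were both below every LF/LCL cow in 4 of the 7 tested genes (CFTR, CLIC6, ATP1B1 and SLC12A2), against 25% of all genes tested, and both above in 1 of 7 (SCNN1G), against 26.9%. In 3 of the 7, CFTR, CLIC6 and ATP1B1, cow 489215 was at the same time not below the lowest LF/LCL cow, as in 16.4% of all genes. By normalized count, cow 489215 was the highest of the 6 cows in 2 of the 7 and the lowest in 3, against 36.7% and 35.7% of all genes tested. Over the 6 libraries, log2 values of CFTR correlated with those of CLIC6 at Pearson's r = 0.97 and with those of ATP1B1 at 0.90, and at 0.97 and 0.89 without cow 489215. SCNN1G ran opposite to CFTR (r = -0.88) and to CLIC6 (r = -0.87). SLC12A2 and CFTR had r = 0.38 over 6 libraries and 0.88 over 5. These values describe 6 libraries that share 1 tissue and 1 normalization, with 2 groups among them, and no test was made of them.

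For each gene, the genes of most similar pattern were those with the highest Pearson's r over the 6 libraries among all genes tested, a description with no test, since a search through 15387 genes finds high values in any case. For SLC12A2 they were GRB10 (r = 0.998), an adaptor of insulin and growth factor receptors, LRRC8C (0.995), a subunit of volume-regulated anion channels, and SRF (0.991), a transcription factor of muscle and cytoskeletal genes. For CFTR they were SS18L1 (0.999), PODXL2 (0.995) and NAALAD2 (0.993), and for CLIC6 MTMR11 (0.997), NUMBL (0.993) and ATG9A (0.992). ANO1 was closest to ECT2L and NSUN4 (0.995 each) and CDC25A (0.992), a cell cycle phosphatase. SCNN1A was closest to FAM73B (0.994), AJUBA (0.992) and SCP2 (0.975). SCNN1B was closest to CP (0.977), which encodes ceruloplasmin, SLC11A2 (0.971), an iron transporter, and CDH13 (0.968). SCNN1G was closest to ARHGAP25 (0.992), SOX21 (0.991) and IFT80 (0.990), the last a protein of intraflagellar transport. ATP1B1 was closest to C5H12orf57 (0.995), NUPR1 (0.993) and KIAA0141 (0.988).

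Around the 8 genes, 8 lists of related transport genes held 130 symbols, of which 117 were found and 90 tested. Of the 90, 31 were higher and 59 lower in SF/SCL by sign, where 51.4% of all genes tested were lower. Their median log2 fold change was -0.38 beside -0.02 over all genes tested. An unadjusted p-value under 0.05 was found for 15 (16.7%), 9 higher and 6 lower in SF/SCL, against 8.66% of all genes. At an adjusted p-value under 0.05 limma called 0 of the 90, against 0% of all genes. DESeq2 called 6 of the 90 at that threshold, against 2.66% of all genes tested. Without cow 489215, 25 of 92 (27.2%) passed the limma adjusted threshold, 14 lower and 11 higher, against 18.2% of all genes, and the median over the same 90 genes was -0.14. The groups did not overlap in 12 of the 90 genes higher in LF/LCL, against 8.6% of all genes tested, and in 11 higher in SF/SCL, against 9.51%.

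Among the regulators of ENaC, of 15 tested, 5 had an unadjusted p-value under 0.05 and were higher in SF/SCL, and 1 was lower. Of all genes, 4.19% were higher and 4.48% lower at that threshold. NEDD4L, the ubiquitin ligase that removes ENaC from the membrane, was at 1019, 905 and 908 in LF/LCL and 1828, 1098 and 1771 in SF/SCL (log2 fold change 0.69, limma adjusted p = 0.496, and 0.93 with 0.00374 without cow 489215). SPINT2, an inhibitor of the membrane proteases that activate ENaC, was at 14530, 13982 and 13612 in LF/LCL and 20421, 23139 and 20338 in SF/SCL (0.60, limma adjusted p = 0.424, and 0.54 with 0.00906 without cow 489215). Its relative SPINT1 had 0.58, and STOML3, a stomatin-like membrane protein, 1.38, with limma adjusted p-values of 0.471 and 0.437, and without cow 489215 they had 0.68 and 1.72, with 0.0162 and 0.0135. None of the 4 had overlapping groups, and DESeq2 called SPINT2 and STOML3. The other higher gene was PRSS8, a protease that activates ENaC (0.76, limma adjusted p = 0.528, and 0.51 with 0.0956 without cow 489215). FURIN, another such protease, was the 1 lower gene (-0.92, limma adjusted p = 0.555, and -0.50 with 0.0252 without cow 489215). Neither had overlapping groups. Over the 15 regulators, the groups did not overlap in 5 higher in SF/SCL and 2 higher in LF/LCL, against 9.51% and 8.6% of all genes tested. DESeq2 called 2 of the 15, against 2.66% of all genes. Without cow 489215, 7 of 14 regulators tested had a limma adjusted p-value under 0.05, 4 higher and 3 lower in SF/SCL, against 18.2% of all genes.

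Partners of CFTR had fold changes in both directions. Of 16 tested, 2 were higher and 1 lower in SF/SCL at an unadjusted p-value under 0.05, against 4.19% and 4.48% of all genes. SLC9A3R1, the scaffold protein NHERF1 that binds CFTR at the apical membrane, was at 4236, 3718 and 2401 in LF/LCL and 8115, 5847 and 8387 in SF/SCL (1.13, limma adjusted p = 0.381, and 1.297 with 0.0147 without cow 489215). ADORA2B, an adenosine receptor that can open CFTR through cyclic AMP, was at 242, 293 and 421 in LF/LCL and 1107, 659 and 1292 in SF/SCL (1.66, limma adjusted p = 0.367, and 1.94 with 0.00522 without cow 489215). DESeq2 called both. SLC26A3, a chloride-bicarbonate exchanger, was at 63.8, 76.0 and 97.5 in LF/LCL and at 3.80, 41.3 and 3.25 in cows 856, 489215 and 97 (-3.05, limma adjusted p = 0.437, and -4.13 with 0.00270 without cow 489215), the values of cows 856 and 97 coming from 5 and 3 reads, so that the fold change depends on the pseudocount. PDZK1, another scaffold for apical transporters, was at 6052, 5976 and 6763 in LF/LCL and at 220, 6243 and 1209 in cows 856, 489215 and 97, with cows 856 and 97 again far below the rest (-2.40, limma adjusted p = 0.626, and -3.60 with 0.0139 without cow 489215).

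**Figure D4:**
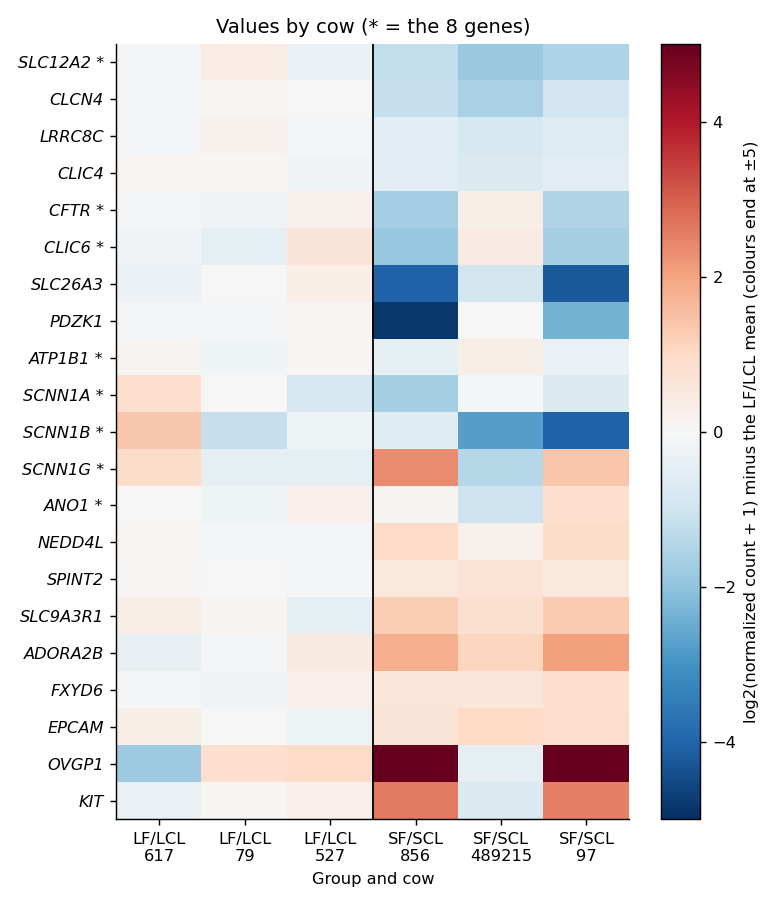
Differences of log2(normalized count + 1) from the LF/LCL mean in each cow for the 8 genes (asterisks), 10 related genes and the markers EPCAM, OVGP1 and KIT, with blue for lower, red for higher and colours ending at 5 in either direction. SLC12A2, CLCN4, LRRC8C and CLIC4 are lower in all 3 SF/SCL cows, CFTR, CLIC6, SLC26A3 and PDZK1 lowest in cows 856 and 97, and OVGP1 is far higher in those 2 cows.

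Other chloride channels were lower in SF/SCL by sign in 9 of 14 genes tested, against 51.4% of all genes tested. Their median log2 fold change was -0.50, or -0.15 once cow 489215 was left out. CLCN4, an endosomal chloride-proton exchanger, was at 862, 973 and 916 in LF/LCL and 411, 301 and 474 in SF/SCL (-1.24, limma adjusted p = 0.367, and -1.05 with 0.00464 without cow 489215), and DESeq2 called it. The volume-regulated channel subunits differed in sign, with log2 fold changes of -0.68 for LRRC8C and 0.45 for LRRC8D, or -0.61 and 0.43 without cow 489215. Within the CLIC family, CLIC4 was at 8255, 8245 and 6907 in LF/LCL and 5428, 4754 and 5331 in SF/SCL (-0.59, limma adjusted p = 0.420, and -0.53 with 0.0213 without cow 489215), while the log2 fold change of CLIC1 was 0.52 (limma adjusted p = 0.612), or 0.36 (0.148) without that cow. Of the anoctamins, the family of ANO1, 4 were tested and 0 passed an unadjusted p-value of 0.05 in limma, against 8.66% of all genes. ANO6 came nearest at -0.92 (limma adjusted p = 0.606), or -0.46 (0.0697) without cow 489215.

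The relatives and kinases of SLC12A2 gave 0 of 15 genes at an unadjusted p-value under 0.05 in limma, against 8.66% of all genes. By sign, 4 were higher and 11 lower in SF/SCL, where 51.4% of all genes tested were lower. SLC12A5, the neuronal potassium-chloride cotransporter, had the smallest p-value of these (log2 fold change 1.35, limma adjusted p = 0.615, and 1.85 with 0.0400 without cow 489215). Of the sodium pump genes, 1 of 10 had an unadjusted p-value under 0.05, against 8.66% of all genes. FXYD6, a small regulator of the pump, was at 2798, 2659 and 3592 in LF/LCL and 4556, 4604 and 5320 in SF/SCL (0.69, limma adjusted p = 0.405, and 0.72 with 0.0240 without cow 489215). Voltage-gated and leak sodium channels, typical of excitable cells, were lower in SF/SCL by sign in 10 of 11 genes, against 51.4% of all genes tested. In limma, 1 of the 11 had an unadjusted p-value under 0.05, against 8.66% of all genes. SCN3A was at 51.3, 137 and 89.6 in LF/LCL and 29.6, 5.33 and 13.0 in SF/SCL (-2.64, limma adjusted p = 0.405, and -2.07 with 0.0453 without cow 489215), and DESeq2 called it. All 9 smooth muscle markers were lower in SF/SCL by the mean of their log2 values, although 5 of the 9 were highest in SF/SCL cow 489215. They summed to 375799, 1275159 and 436809 in cows 856, 489215 and 97, against 808563 to 926324 in LF/LCL. Of the nerve and Schwann cell markers, SOX10 was lower by the same measure, whereas S100B was at 2584 to 5400 in LF/LCL and 8852 to 32285 in SF/SCL. Their part in the sodium channel values was not tested.

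**Figure D5:**
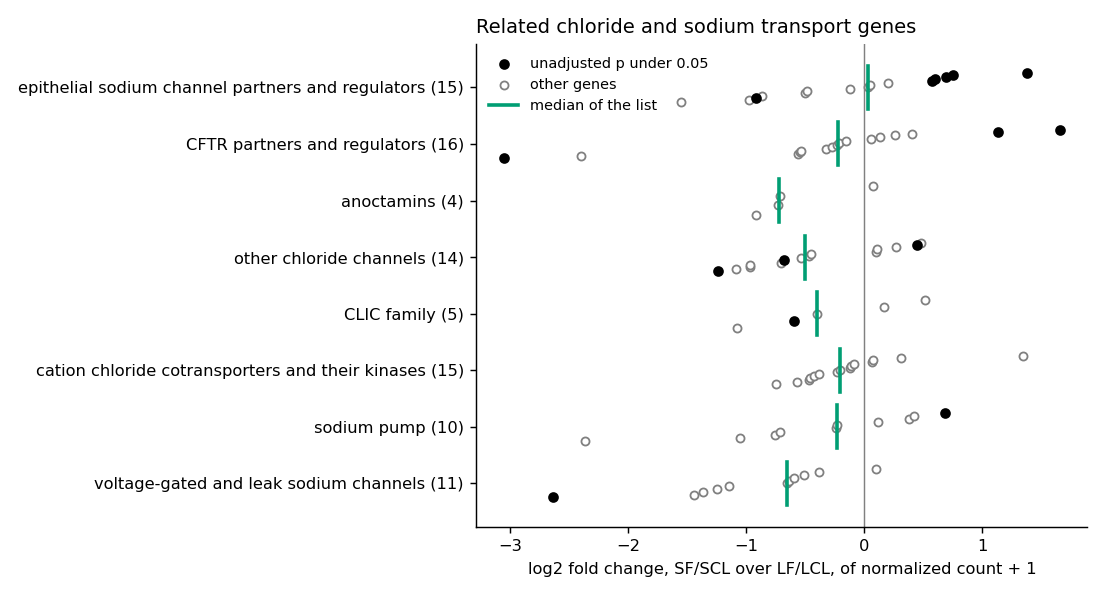
Log2 fold change (SF/SCL over LF/LCL, of the normalized count + 1) of the 90 tested genes of the 8 related lists, 1 point per gene, filled where the unadjusted limma p-value was under 0.05, with a green bar at each list's median and the number tested in brackets. Filled points lie mainly to the right among ENaC regulators (5 higher, 1 lower). Of the voltage-gated and leak sodium channels, 10 of 11 lie left of 0, against 51.4% of all genes tested.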

How the data were processed

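Polyadenylated RNA of the isthmus of 6 cows, 3 per group, was sequenced as paired ends on the Illumina platform. Per the paper's methods and the submitters' processing notes, the authors quality-filtered the sequences in seqyClean, used TopHat2 2.0.8 and Bowtie2 2.1.0 to place them on the masked UMD3.1 assembly of the bovine genome, counted uniquely mapped reads per gene with HTSeq 0.5.4p2, and divided the counts by the DESeq 1.12.1 size factor of each library. The deposited signal values are these normalized counts, unfiltered. Whether counting used the strand is not given in the sources used here, so reads of overlapping antisense transcripts cannot be told apart from those of a gene. Reads were recovered from the values, of which 100% were whole within 0.05 read.

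Genes with a mean above 5 and above the SD over the libraries (15387) were fitted with limma 3.58.1 (lmFit, eBayes with trend and robust) in R 4.3.3 on log2(value + 1), without covariates, with Benjamini-Hochberg adjustment over all genes tested and a threshold of 0.05. The smallest exact permutation p-value of 3 against 3 is 0.1. The alternatives were edgeR 4.0.16 and DESeq2 1.42.0 on the recovered reads, pseudocounts of 0.5 and 5, other filters, TMM rescaling and leaving out each cow. Fits with DESeq2, edgeR and the filter on the mean alone that left out cow 489215, and edgeR and DESeq2 with the filter on the mean alone, were added after seeing the data. The fits were tested on simulated data. The 8 genes, the lists and the markers were chosen with earlier results of these data known. In each list up to 4 genes with the smallest limma p-values are named, with any a background sentence needs, and for each of the 8 genes the 3 genes of highest correlation. PRSS8 and FURIN were added so that every ENaC regulator with an unadjusted p-value under 0.05 is named. All 8 genes matched the RefSeq gene table by symbol, and it was used for names and neighbours only. Levels are not compared between genes, since no transcript lengths were used. Replicates are separate cows. Other genes of the lists enter the counts without being named, and a few results are not reported here. Python 3.11.15 with numpy 2.4.6, pandas 2.3.3, scipy 1.17.1 and matplotlib 3.10.9 did the other steps.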

Additional observations from a re-analysis of the deposited data

How the results depend on the processing

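Leaving out each cow in turn, any such fit in edgeR or DESeq2 or with the filter on the mean alone included, the log2 fold change ran from -1.63 to -0.60 for CFTR, from -1.28 to -0.38 for SCNN1A, from -3.41 to -1.69 for SCNN1B, from -0.025 to 1.87 for SCNN1G (negative without cow 856), from -0.42 to -0.016 for ATP1B1, from -0.44 to 0.51 for ANO1 (positive without cow 527 or 489215), from -1.70 to -1.37 for SLC12A2, from -1.87 to -0.61 for CLIC6 and from -0.21 to 0.25 for ANO10 (negative without cow 489215). Over the same fits the genes at an adjusted p-value under 0.05 numbered 0 to 3922, the genes of the 8 lists at an unadjusted p-value under 0.05 numbered 6 to 44, with 6 without LF/LCL cow 79 or cow 527 and 40 without SF/SCL cow 489215 in limma, and the 8 genes at an unadjusted p-value under 0.05 numbered 1 to 6. ANO1 turned positive with edgeR (0.14 with TMM, 0.15 with DESeq2 size factors, 0.13 with the filter on the mean alone) and with DESeq2 (0.16, and 0.15 with that filter). SLC12A2 passed the adjusted threshold with DESeq2 (-1.55 with either filter), which called 409 genes, or 536 with the filter on the mean alone. The 8 genes at an unadjusted p-value under 0.05 were 2 with no filter and 2 with DESeq2 and the filter on the mean alone. The cause of these changes was not tested. No other scaling moved the median log2 fold change of all genes by more than 0.072. Low depth limits SCNN1B and SCNN1G most, with as few as 3 and 12 reads. No paired analysis was possible because the cows share no number between the groups.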

Other observations

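Some genes of the related lists that were outside the filter or outside the naming rule separated cows 856 and 97 from the other 4 cows, and they are named because of what their values showed. SLC12A1, the kidney-type Na-K-2Cl cotransporter NKCC2, was at 49.2, 41.3 and 10.5 normalized counts in LF/LCL cows 617, 79 and 527 and at 591 and 268 in SF/SCL cows 856 and 97. It had 0 reads in cow 489215, which allows up to 3 reads. ANO3, an anoctamin, was at 39.8, 52.6 and 74.7 in LF/LCL, and at 337 and 179 in cows 856 and 97, with its lowest value in cow 489215. SCN9A, a voltage-gated sodium channel of sensory neurons, was at 116, 74.2 and 78.2 in LF/LCL, at 341 and 564 in cows 856 and 97 and at 16.0 in cow 489215. HSD11B2, the enzyme that shields the mineralocorticoid receptor from cortisol, ran the other way, at 611, 845 and 733 in LF/LCL, at 201 and 231 in cows 856 and 97 and at 1345 in cow 489215. None of these 4 was tested for the split between cows, which was seen in the data. The split is common over all genes tested. Cows 856 and 97 were both above every LF/LCL cow, with cow 489215 not above the highest of them, in 17.4%. They were both below every LF/LCL cow, with cow 489215 not below the lowest of them, in 16.4%.

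Marker lists not described above had these summed normalized counts. The 6 endothelial markers found summed to 12833 to 16569 in LF/LCL and 10730 to 15814 in SF/SCL, and the 7 leukocyte markers to 2052 to 3762 and 1918 to 3298. The 5 mesothelial markers summed to 1252 to 2207 in LF/LCL and 2462 to 18763 in SF/SCL, MSLN making up most of it. The mesothelial markers did not move together, since LRRN4, at 175 to 412 in LF/LCL and 3.80 to 16.3 in SF/SCL, and BNC1, at 68.0 to 97.6 and 16.0 to 23.5, were lower in every SF/SCL cow than in any LF/LCL cow. The 4 erythrocyte markers were near 0, at 0 to 2.09 and 4.34 to 6.66.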
